A study of Mus musculus with 16 samples.

Results

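The genes described here are 39 antiviral interferon-stimulated genes of the mouse: the transcription factors of the interferon response, the sensors of viral nucleic acid, and the effectors that block viral entry, translation or replication. A gene was measured where the array holds a probe set annotated with its symbol alone, and among several such probe sets the brightest on average was taken. By this rule 37 of the 39 were measured, among 22180 genes in all. Ifi44 had no such probe set, and the only probe set for Dtx3l is shared with Parp9. The rule itself uses no difference between samples.

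RNA came from CD8 T cells of the spleen, sorted as Lin- TCRb+ CD8+ cells from female C57BL/6 mice (written C56BL/6 in the strain label) that had received leukemia cells of Eµ-TCL1 mice, a model of chronic lymphocytic leukemia (CLL), 6 weeks before. Each of 4 subsets was measured on 4 expression arrays: PD-1hi effector cells (CD127low CD44int-hi PD-1hi), PD-1int effector cells (CD127low CD44int-hi PD-1int), memory cells (CD127hi CD44hi) and naive cells (CD127hi CD44low). All 4 subsets came from leukemic mice, so the naive cells are no sample of a leukemia-free animal. The labels do not say whether the 4 replicates of a subset were separate mice or pools, so p-values measure the spread between these samples only.

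Type I interferon binds the receptor chains IFNAR1 and IFNAR2, and the kinases JAK1 and TYK2 then phosphorylate STAT2. STAT2 and IRF9 are subunits of the complex ISGF3, which binds interferon-stimulated response elements (ISREs) in the promoters of these genes, while interferon gamma acts through gamma-activated sites (GAS). In CD8 T cells the genes are read as a record of interferon exposure, and some, such as Usp18, feed back on the receptor.

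The promoters of 4 members are printed below with their matches to the ISRE core. They were chosen after their values were seen because they behaved differently across the subsets, and all 4 hold a match. Binding to these matches was not measured. RefSeq (build GRCm38.p6) gave 42 promoters for 31 of the 39 members, each running from 250 bases before to 50 bases after the start of the gene. Both strands were searched for the ISRE core GAAANNGAA and the GAS core TTCNNNGAA, with overlapping matches counted separately. The ISRE core was present in 16 of the 42 member promoters (38.1%), against 8.56% of all 32851 promoters. The GAS core was present in 7 of 42 (16.7%), against 8.3% of all promoters. Of the 28 ISRE matches, 17 began within the 150 bases before the start. Capitals mark the bases of ISRE core matches in the sequences, which are written 5′ to 3′ on the strand of the gene.
Oas3, chr5:120777610-120777909, minus strand: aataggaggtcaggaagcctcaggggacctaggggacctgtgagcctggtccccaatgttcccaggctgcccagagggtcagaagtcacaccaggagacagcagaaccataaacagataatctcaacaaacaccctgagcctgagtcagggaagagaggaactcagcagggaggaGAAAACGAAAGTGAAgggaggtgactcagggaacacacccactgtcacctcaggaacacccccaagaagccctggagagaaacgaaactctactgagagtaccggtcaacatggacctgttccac
Ifit1, chr19:34640639-34640938, plus strand: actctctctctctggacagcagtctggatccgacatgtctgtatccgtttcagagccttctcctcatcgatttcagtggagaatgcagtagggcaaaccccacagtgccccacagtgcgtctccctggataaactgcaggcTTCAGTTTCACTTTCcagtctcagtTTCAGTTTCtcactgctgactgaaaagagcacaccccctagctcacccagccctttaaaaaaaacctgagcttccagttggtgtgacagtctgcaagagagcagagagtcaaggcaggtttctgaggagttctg
Isg15, chr4:156200769-156201068, minus strand: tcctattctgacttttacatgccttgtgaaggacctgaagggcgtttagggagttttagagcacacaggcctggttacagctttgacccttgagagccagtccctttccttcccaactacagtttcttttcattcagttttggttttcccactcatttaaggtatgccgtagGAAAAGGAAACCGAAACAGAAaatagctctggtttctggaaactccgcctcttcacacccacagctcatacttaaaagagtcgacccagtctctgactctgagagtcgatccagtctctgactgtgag
Eif2ak2, chr17:78882523-78882822, minus strand: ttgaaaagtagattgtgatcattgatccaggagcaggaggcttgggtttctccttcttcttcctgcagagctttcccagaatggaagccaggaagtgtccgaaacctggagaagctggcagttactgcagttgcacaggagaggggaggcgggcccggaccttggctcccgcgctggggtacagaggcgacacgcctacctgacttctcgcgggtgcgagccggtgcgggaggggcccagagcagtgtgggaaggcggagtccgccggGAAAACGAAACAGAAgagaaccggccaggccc
Oas3 holds 2 overlapping matches, Ifit1 and Isg15 3 each, and Eif2ak2 2 just after its start. Oas3 and Ifit1 were lower in PD-1hi cells than in PD-1int cells, whereas Isg15 and Eif2ak2 were not called between them. Among the 17 members that were lower in PD-1hi than in PD-1int cells, 13 had a promoter in the table and 6 of these held the core. Of the 20 members not called in that comparison, 16 had a promoter and 8 held the core. The promoters of Cmpk2, Irf7, Irf9 and Oasl2 hold no match in this window. Mx1, Oas2, Dhx58, Rtp4, Usp18, Parp9, Parp14 and Zbp1 had no entry.

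Most of the antiviral genes were lowest in PD-1hi cells. Of the 37 measured members, 22 (59.5%) had their lowest subset mean in PD-1hi cells, as did 26.8% of all genes. A further 2 members (5.4%) were lowest in PD-1int cells, 7 (18.9%) in memory cells and 6 (16.2%) in naive cells. Of all genes 23.95%, 23.9% and 25.4% were lowest there. The highest mean lay in PD-1hi cells for 2 members (5.4%), in PD-1int cells for 11 (29.7%), in memory cells for 6 (16.2%) and in naive cells for 18 (48.65%). The shares of all genes were 28.7%, 16.8%, 21.0% and 33.5%. Both counts for memory cells are near the shares of all genes. With every member centred on its own mean over the 16 arrays, the average member stood at −0.45, −0.34, −0.23 and −0.34 log2 units in the PD-1hi arrays, at 0.06, 0.01, 0.06 and 0.12 in the PD-1int arrays, at 0.05, 0.07, −0.03 and 0.12 in the memory arrays, and at 0.08, 0.26, 0.24 and 0.32 in the naive arrays. All 4 PD-1hi arrays lay below every other array on this summary. In sorted bulk samples, fewer cells that express a gene and less RNA of it per cell cannot be told apart.

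**Figure D1:**
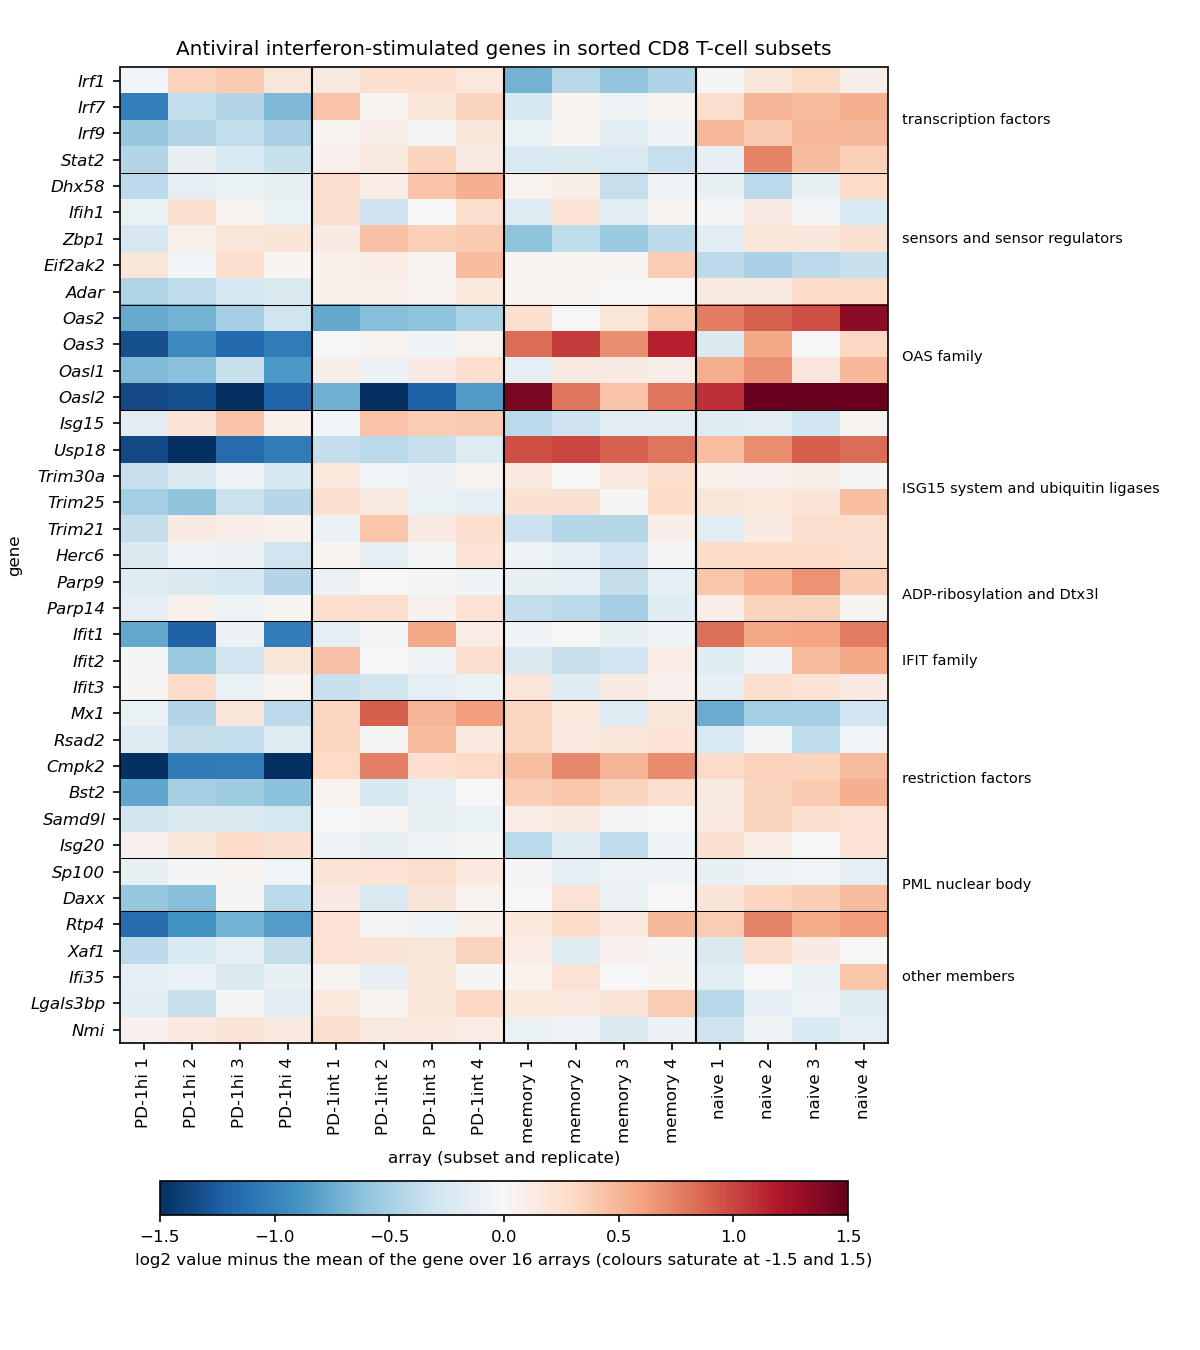
Each row is one of the 37 measured members, grouped by role, and each column is one array, with the 4 PD-1hi arrays at the left and the 4 naive arrays at the right. Colour gives the log2 value minus the mean of that gene over the 16 arrays (blue below, red above, saturated at -1.5 and 1.5). Oasl2, Usp18, Oas3 and Cmpk2 are among the deepest blue rows in the PD-1hi columns, while Eif2ak2, Nmi and Isg20 lie near or above their means there.

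Differences were tested with limma over all 22180 genes, and a gene was called at a Benjamini-Hochberg adjusted p under 0.05. In PD-1hi cells 20 members were lower than in naive cells and 2 were higher, while 13.7% and 13.4% of all genes were called lower and higher. The median log2 difference was −0.38 over the members and −0.01 over all genes, and the members ran from −2.96 for Oasl2 to 0.51 for Eif2ak2. At least 2-fold lower were 9 members, against 2.43% of all genes. Every PD-1hi array lay below every naive array for 18 of the 37 members, against 13% of all genes.

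Compared with naive cells, PD-1int cells showed a mixed picture. Here 12 members were lower and 8 higher, beside 10.8% and 11.9% of all genes, and the median log2 difference was −0.12 against −0.03 over all genes. Leaving out PD-1int replicate 1 reduced the 12 lower members to 8. Memory cells had 13 members lower and 5 higher than naive cells, beside 5.02% and 6.7% of all genes, with a median of −0.18 against −0.02. These 3 comparisons share the naive arrays.

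Between the effector subsets the members that were called differed in 1 direction. In PD-1hi cells 17 members were lower than in PD-1int cells and 0 were higher, while 1.94% and 1.37% of all genes were called lower and higher. At an unadjusted limma p under 0.05, 2 members were higher, Ifit3 and Isg20 (5.41%, against 6.72% of all genes). The log2 difference was below 0 for 33 of the 37 members, with a median of −0.34 against 0.01 over all genes. For 20 members every PD-1hi array lay below every PD-1int array, against 4.5% of all genes. For Ifit3 and Isg20 every PD-1hi array lay above, and the share of all genes that did so was not counted.

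Set against memory cells, PD-1hi cells had 19 members lower and 6 higher, beside 11.1% and 10.8% of all genes, with a median log2 difference of −0.30 against 0.01. In PD-1int cells 5 members were lower than in memory cells and 9 higher, beside 7.66% and 8.49% of all genes, with a median of 0.08 against −0.004. None of the 37 members was among the dimmest 40% of genes. Among the brighter genes, 22.1% were lower and 22.1% higher in PD-1hi than in naive cells. Between PD-1hi and PD-1int cells 3.96% were lower and 2.69% higher in PD-1hi. The shares lower and higher were 17.3% and 20.3% in PD-1int and 8.93% and 12.4% in memory against naive cells. Against memory cells they were 18.8% and 17.9% in PD-1hi and 13.1% and 14.8% in PD-1int cells. The 8 members higher in PD-1int and the 5 higher in memory than in naive cells are near these shares. So are the 6 higher in PD-1hi and the 5 lower in PD-1int than in memory cells.

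**Figure D2:**
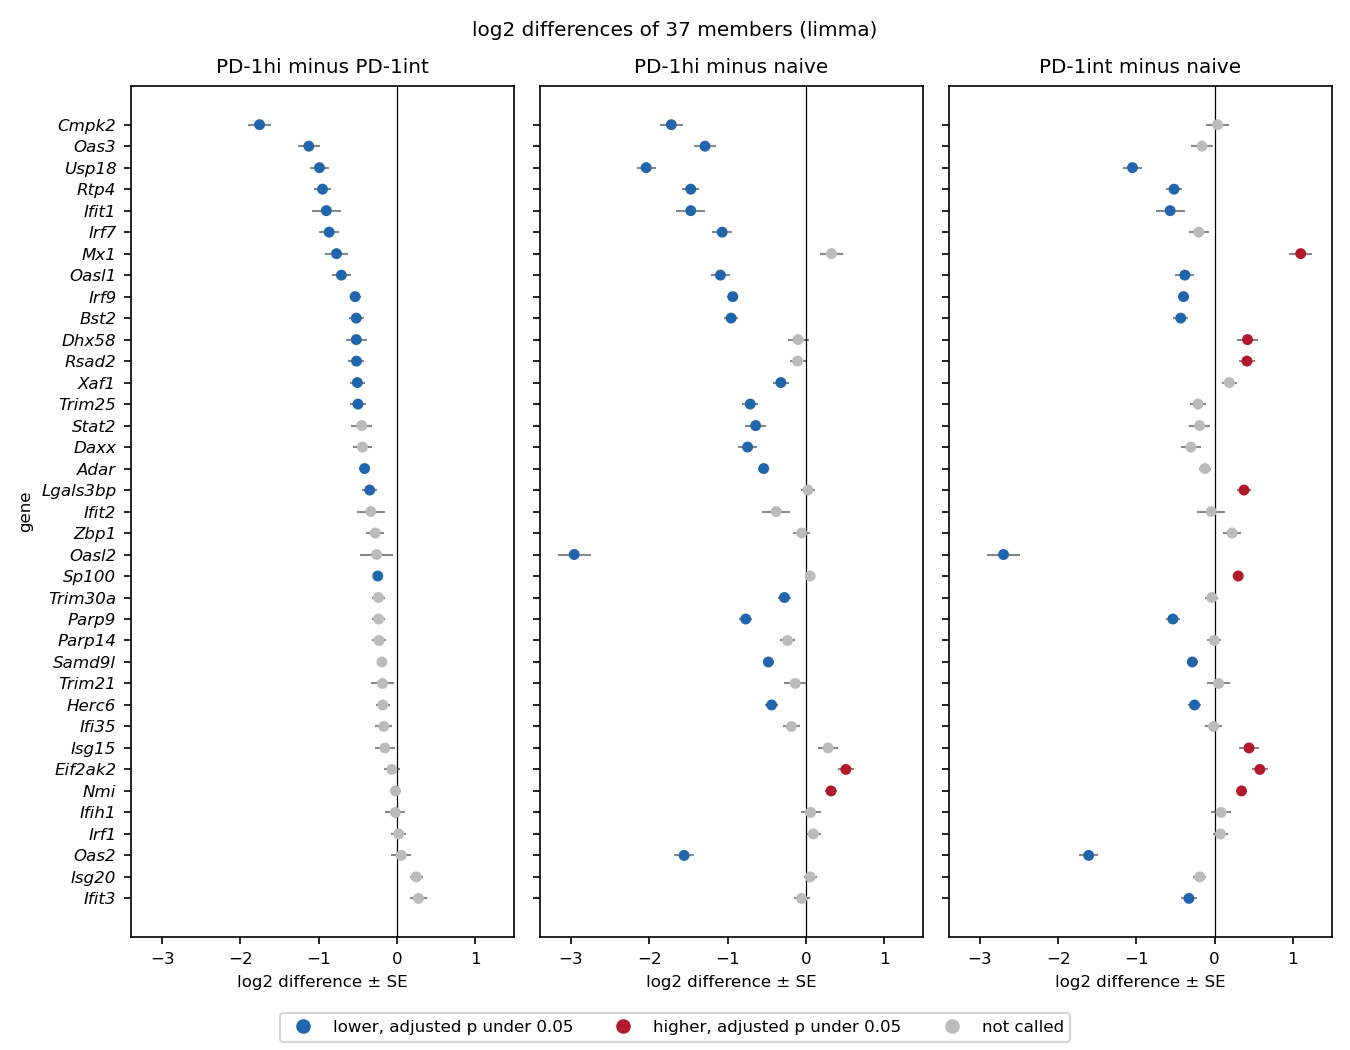
Log2 differences of the 37 members (points) with their standard errors (bars) for PD-1hi minus PD-1int, PD-1hi minus naive and PD-1int minus naive cells, ordered by the first. Blue points were called lower, red points higher and grey points not called. The 17 members called between PD-1hi and PD-1int cells all lie left of 0, while PD-1int against naive cells has 8 red and 12 blue points.

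Of the 4 transcription factors, 3 (Irf9, Irf7 and Stat2) were lower in PD-1hi than in naive cells, and 2 (Irf9 and Irf7) were also lower than in PD-1int cells. For this and the other groups of members by role, 13.7% of all genes were lower against naive and 1.94% against PD-1int cells. Among the brighter genes the shares were 22.1% and 3.96%. Irf9, the DNA-binding partner of STAT2 in ISGF3, read 9.23, 9.37, 9.43 and 9.32 log2 units in the PD-1hi arrays, 9.84, 9.91, 9.78 and 9.97 in the PD-1int arrays, 9.71, 9.83, 9.65 and 9.75 in the memory arrays, and 10.30, 10.20, 10.30 and 10.29 in the naive arrays. The PD-1hi arrays lay below all others and the naive arrays above all others, with PD-1int and memory overlapping in between. The log2 difference in PD-1hi cells was −0.54 ± 0.07 (SE) from PD-1int cells (adjusted p = 0.000228) and −0.93 ± 0.07 from naive cells (adjusted p = 8.94e-09). PD-1int cells (−0.40 ± 0.07, adjusted p = 0.000355) and memory cells (−0.54 ± 0.07, adjusted p = 4.14e-05) were also below naive cells.

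Irf7, the factor that amplifies type I interferon transcription, read 9.07, 9.73, 9.65 and 9.42 in the PD-1hi arrays, 10.52, 10.12, 10.27 and 10.43 in the PD-1int arrays, 9.85, 10.14, 10.02 and 10.12 in the memory arrays, and 10.35, 10.60, 10.57 and 10.62 in the naive arrays. PD-1hi was again below every array of the other subsets, while PD-1int overlapped both memory and naive. Its log2 difference in PD-1hi cells was −0.87 ± 0.13 from PD-1int cells (adjusted p = 0.000573), −0.57 ± 0.13 from memory cells (adjusted p = 0.00271) and −1.07 ± 0.13 from naive cells (adjusted p = 2.77e-06). Memory cells were lower than naive cells by a log2 difference of −0.50 ± 0.13 (adjusted p = 0.0128), a call that was lost without memory replicate 1 (adjusted p = 0.0518).

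Stat2, the other ISGF3 subunit on the list, read 9.06, 9.39, 9.27 and 9.16 in the PD-1hi arrays, 9.58, 9.65, 9.83 and 9.62 in the PD-1int arrays, 9.28, 9.30, 9.27 and 9.15 in the memory arrays, and 9.37, 10.25, 9.97 and 9.85 in the naive arrays. PD-1hi and memory overlapped, PD-1int lay above both, and naive was the most scattered. Against naive cells the log2 difference was −0.64 ± 0.13 in PD-1hi cells (adjusted p = 0.00107) and −0.61 ± 0.13 in memory cells (adjusted p = 0.00442). Although no PD-1hi array reached a PD-1int array, that difference of −0.45 ± 0.13 was not called (adjusted p = 0.0819).

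The fourth factor, Irf1, is induced chiefly by interferon gamma. It read 9.69, 10.08, 10.13 and 9.91 in the PD-1hi arrays, 9.87, 9.97, 9.98 and 9.90 in the PD-1int arrays, 9.02, 9.32, 9.16 and 9.27 in the memory arrays, and 9.70, 9.91, 10.00 and 9.82 in the naive arrays. Only the memory arrays stood apart, below all the others. Irf1 was higher than in memory cells by a log2 difference of 0.76 ± 0.10 in PD-1hi cells (adjusted p = 1.12e-05) and 0.74 ± 0.10 in PD-1int cells (adjusted p = 3.03e-05), and memory was below naive cells (−0.67 ± 0.10, adjusted p = 0.00013). Between PD-1hi and PD-1int cells the log2 difference was 0.02 ± 0.10, which was not called.

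The oligoadenylate synthetases, which detect double-stranded RNA and make the oligoadenylates that activate RNase L, held the largest difference from naive cells. All 4 members of this family were at least 2-fold lower in PD-1hi than in naive cells, against 2.43% of all genes. Oasl2, a synthetase-like protein with ubiquitin-like domains, read 6.23, 6.26, 6.01 and 6.37 in the PD-1hi arrays, 6.85, 5.98, 6.36 and 6.73 in the PD-1int arrays, 8.99, 8.38, 8 and 8.38 in the memory arrays, and 8.68, 9.17, 9.29 and 9.57 in the naive arrays. Both effector subsets overlapped each other and lay far below memory and naive. The log2 difference from naive cells was −2.96 ± 0.21 in PD-1hi cells (7.77-fold lower, adjusted p = 4.06e-09) and −2.70 ± 0.21 in PD-1int cells (6.49-fold lower, adjusted p = 2.12e-08). Memory cells overlapped naive cells and their difference of −0.74 ± 0.21 (adjusted p = 0.0285) was lost on leaving out any 1 of 6 arrays, the highest adjusted p being 0.101 without memory replicate 3.

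Oas2, an active synthetase, had its lowest mean in PD-1int cells. It read 6.77, 6.82, 7.02 and 7.22 in the PD-1hi arrays, 6.76, 6.88, 6.92 and 7.05 in the PD-1int arrays, 7.76, 7.52, 7.71 and 7.91 in the memory arrays, and 8.29, 8.41, 8.49 and 8.86 in the naive arrays. The effector subsets overlapped, memory lay above them and naive above memory. From naive cells the log2 difference was −1.56 ± 0.12 in PD-1hi cells (adjusted p = 1.87e-08), −1.61 ± 0.12 in PD-1int cells (adjusted p = 1.87e-08) and −0.79 ± 0.12 in memory cells (adjusted p = 0.000273).

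Oas3 set PD-1hi apart from PD-1int cells. Its log2 values were 6.98, 7.35, 7.13 and 7.25 in the PD-1hi arrays, 8.30, 8.35, 8.23 and 8.35 in the PD-1int arrays, 9.14, 9.35, 9 and 9.46 in the memory arrays, and 8.10, 8.87, 8.30 and 8.61 in the naive arrays. PD-1hi was below and memory above all other arrays, and PD-1int fell within the range of naive. PD-1hi cells were below PD-1int cells by a log2 difference of −1.13 ± 0.14 (2.18-fold, adjusted p = 9.51e-05), below memory cells by −2.06 ± 0.14 (4.16-fold, adjusted p = 4.1e-09) and below naive cells by −1.29 ± 0.14 (2.44-fold, adjusted p = 8.2e-07). Memory cells were above naive cells by 0.77 ± 0.14 (adjusted p = 0.000909).

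Oasl1, which in mice restrains translation of Irf7 mRNA, read 6.59, 6.62, 6.92 and 6.39 in the PD-1hi arrays, 7.33, 7.16, 7.37 and 7.5 in the PD-1int arrays, 7.12, 7.38, 7.37 and 7.35 in the memory arrays, and 7.79, 7.93, 7.42 and 7.74 in the naive arrays. PD-1hi stood below every other array. The log2 difference in PD-1hi cells was −0.71 ± 0.12 from PD-1int cells (adjusted p = 0.00207) and −1.09 ± 0.12 from naive cells (adjusted p = 1.08e-06). PD-1int cells (−0.38 ± 0.12, adjusted p = 0.0283) and memory cells (−0.42 ± 0.12, adjusted p = 0.0302) were below naive cells, but each of these calls was lost on leaving out any 1 of 5 arrays, with an adjusted p of up to 0.101 for PD-1int and 0.107 for memory, and the memory call was lost with the replicate number as a block (0.0533).

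The ISG15 system attaches the ubiquitin-like protein ISG15 to other proteins. With the ubiquitin ligases it counts 6 members, of which 4 were lower and 0 higher in PD-1hi than in naive cells, and 2 were lower than in PD-1int cells. Usp18, the protease that removes ISG15 and also binds IFNAR2 to dampen signalling, had log2 values of 7.33, 6.98, 7.53 and 7.63 in the PD-1hi arrays, 8.33, 8.28, 8.34 and 8.49 in the PD-1int arrays, 9.65, 9.69, 9.57 and 9.48 in the memory arrays, and 9.15, 9.38, 9.58 and 9.52 in the naive arrays. The values formed 3 levels, with PD-1hi lowest, PD-1int next, and memory and naive overlapping at the top. The log2 difference from naive cells was −2.04 ± 0.12 in PD-1hi cells (4.11-fold lower, adjusted p = 3.65e-10) and −1.05 ± 0.12 in PD-1int cells (adjusted p = 3.02e-06). Between the effector subsets it was −0.99 ± 0.12 (adjusted p = 9.51e-05).

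Isg15 itself was not called between the effector subsets. It read 9.12, 9.48, 9.71 and 9.37 in the PD-1hi arrays, 9.24, 9.72, 9.65 and 9.68 in the PD-1int arrays, 8.89, 8.98, 9.12 and 9.11 in the memory arrays, and 9.09, 9.12, 8.99 and 9.33 in the naive arrays. The effector arrays overlapped each other, and both effector subsets overlapped naive. PD-1int cells were higher than memory cells by a log2 difference of 0.55 ± 0.12 (adjusted p = 0.00416) and higher than naive cells by 0.44 ± 0.12 (adjusted p = 0.014). PD-1hi cells were higher than memory cells by 0.40 ± 0.12 (adjusted p = 0.0277), a call lost on leaving out PD-1hi replicate 2 (adjusted p = 0.0667) or 3 (0.108), or memory replicate 1 (0.0865) or 2 (0.0667). Against naive cells the PD-1hi difference of 0.28 was not called.

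Herc6, the main ISG15 ligase of the mouse, read 9.99, 10.15, 10.11 and 9.90 in the PD-1hi arrays, 10.23, 10.05, 10.19 and 10.41 in the PD-1int arrays, 10.12, 10.07, 9.92 and 10.19 in the memory arrays, and 10.47, 10.48, 10.48 and 10.47 in the naive arrays. The naive arrays were tightly grouped above all others, and the other 3 subsets overlapped. PD-1hi cells were below naive cells by a log2 difference of −0.44 ± 0.09 (adjusted p = 0.000609) and memory cells by −0.40 ± 0.09 (adjusted p = 0.00391). The PD-1int difference of −0.26 ± 0.09 (adjusted p = 0.0384) was lost on leaving out any 1 of 7 arrays, with adjusted p up to 0.138, and with the replicate number as a block (0.0603). Median centring (adjusted p = 0.083) and a fit of only the 8 arrays compared (0.0661) lost it too.

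Trim25, Trim30a and Trim21 are ubiquitin ligases. Trim25, which ubiquitinates the RNA sensor RIG-I, had subset means of 8.71 ± 0.12 in PD-1hi, 9.21 ± 0.18 in PD-1int, 9.36 ± 0.12 in memory and 9.43 ± 0.14 in naive cells (SD, n = 4 each), and PD-1hi was lower than each of the others. Trim30a, which restrains Toll-like receptor signalling in mice, was lower in PD-1hi than in naive cells (−0.27 ± 0.08, adjusted p = 0.0159, but 0.0589 without PD-1hi replicate 1) and close copies of it exist in the mouse genome. Trim21, a cytosolic antibody receptor, was called in 1 comparison, higher in PD-1int than in memory cells (0.44 ± 0.14, adjusted p = 0.042), and this was lost on leaving out any 1 of 6 arrays, with adjusted p up to 0.141. Quantile normalization (adjusted p = 0.0575) and a fit of only the 8 arrays compared (0.0503) lost it too.

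Parp9 and Parp14 belong to the ADP-ribosyltransferases. Parp9, the partner of the ligase DTX3L, had log2 values of 8.74, 8.72, 8.65 and 8.48 in the PD-1hi arrays, 8.84, 8.93, 8.89 and 8.87 in the PD-1int arrays, 8.81, 8.78, 8.56 and 8.79 in the memory arrays, and 9.34, 9.44, 9.59 and 9.29 in the naive arrays. Naive lay above all other arrays. The log2 difference from naive cells was −0.77 ± 0.09 in PD-1hi cells (adjusted p = 1.06e-06), −0.53 ± 0.09 in PD-1int cells (adjusted p = 0.000104) and −0.68 ± 0.09 in memory cells (adjusted p = 2.03e-05). The probe set shared by Dtx3l and Parp9 averaged 9.23 ± 0.22 in PD-1hi, 9.39 ± 0.04 in PD-1int, 9.31 ± 0.07 in memory and 9.65 ± 0.07 in naive arrays (SD, n = 4 each), and was left out of the fit.

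Parp14 was lowest in memory cells. It read 9.82, 10.03, 9.89 and 9.99 in the PD-1hi arrays, 10.20, 10.23, 10.03 and 10.18 in the PD-1int arrays, 9.60, 9.56, 9.45 and 9.78 in the memory arrays, and 10.06, 10.30, 10.30 and 10.00 in the naive arrays. Every memory array lay below every array of the other subsets. The log2 difference from memory cells was 0.33 ± 0.09 in PD-1hi cells (adjusted p = 0.0118) and 0.56 ± 0.09 in PD-1int cells (adjusted p = 0.000235), and memory was below naive cells (−0.57 ± 0.09, adjusted p = 0.000305).

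**Figure D3:**
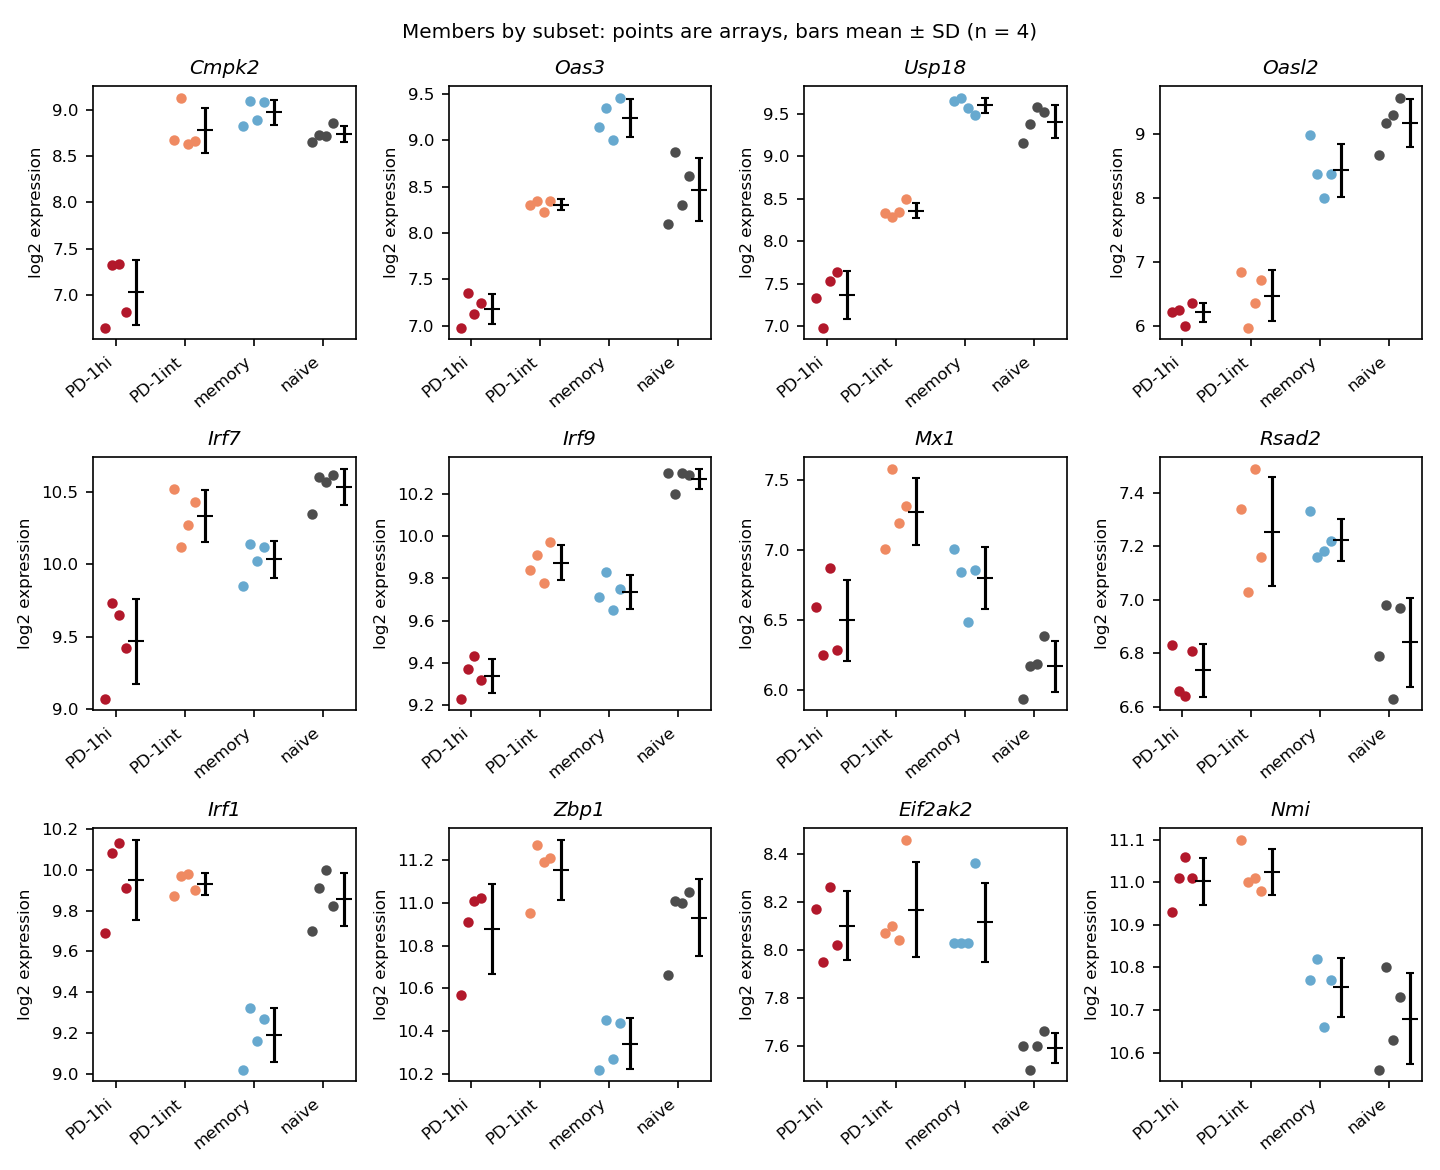
Log2 values of 12 members by subset, with PD-1hi at the left and naive at the right of each panel; points are the 4 arrays of a subset and bars the mean and SD. The panels of Cmpk2, Oas3, Usp18, Irf7 and Irf9 show the PD-1hi points below all others, Oasl2 shows both effector subsets low, and Irf1 and Zbp1 show the memory points lowest. Each panel has its own log2 axis, which does not start at 0.

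Of the 5 sensors and sensor regulators, 1 was higher (Eif2ak2) and 1 lower (Adar) in PD-1hi than in naive cells, and 2 (Dhx58 and Adar) were lower than in PD-1int cells. With 13.4% of all genes higher and 13.7% lower against naive cells, 1 of 5 each way is near the background. Eif2ak2 encodes PKR, the kinase that halts translation when it binds double-stranded RNA. Its log2 values were 8.17, 7.95, 8.26 and 8.02 in the PD-1hi arrays, 8.07, 8.10, 8.04 and 8.46 in the PD-1int arrays, 8.03, 8.03, 8.03 and 8.36 in the memory arrays, and 7.60, 7.5, 7.60 and 7.66 in the naive arrays. The naive arrays lay below all others, and the other 3 subsets overlapped. Against naive cells Eif2ak2 was higher by a log2 difference of 0.51 ± 0.11 in PD-1hi cells (adjusted p = 0.000921), 0.58 ± 0.11 in PD-1int cells (adjusted p = 0.000398) and 0.52 ± 0.11 in memory cells (adjusted p = 0.00221).

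Zbp1, a sensor of left-handed nucleic acid that can trigger necroptosis, read 10.57, 10.91, 11.01 and 11.02 in the PD-1hi arrays, 10.95, 11.27, 11.19 and 11.21 in the PD-1int arrays, 10.22, 10.45, 10.27 and 10.44 in the memory arrays, and 10.66, 11.01, 11 and 11.05 in the naive arrays. Memory was lowest without overlap, as it was for Irf1 and Parp14. Zbp1 was higher than in memory cells by a log2 difference of 0.54 ± 0.11 in PD-1hi cells (adjusted p = 0.00152) and 0.81 ± 0.11 in PD-1int cells (adjusted p = 4.65e-05). Memory was below naive cells by −0.59 ± 0.11 (adjusted p = 0.00148).

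Of the remaining sensors, Adar, the enzyme that edits double-stranded RNA and so limits its sensing, was lower in PD-1hi cells (9.65 ± 0.11) than in PD-1int (10.06 ± 0.04), memory (10.00 ± 0.02) and naive cells (10.18 ± 0.09; SD, n = 4 each). Dhx58, or LGP2, which modulates the RIG-I-like receptors, averaged 8.23 ± 0.14 in PD-1hi, 8.75 ± 0.18 in PD-1int, 8.36 ± 0.20 in memory and 8.33 ± 0.29 in naive cells. Its call between PD-1hi and PD-1int cells (adjusted p = 0.0404) was lost under quantile normalization (adjusted p = 0.0621), median centring (0.0643) and on leaving out any 1 of 7 arrays (up to 0.13). Ifih1, or MDA5, a sensor of long double-stranded RNA, was called in none of the 6 comparisons (smallest adjusted p = 0.736), and its subset means lay between 8.87 and 8.95.

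The IFIT proteins bind viral RNA ends or translation factors, and of the 3 on the list only Ifit1 was lower in PD-1hi than in naive or PD-1int cells. Ifit1 read 7.69, 7.25, 8.37 and 7.42 in the PD-1hi arrays, 8.32, 8.43, 9.02 and 8.56 in the PD-1int arrays, 8.40, 8.46, 8.34 and 8.41 in the memory arrays, and 9.28, 9.04, 9.05 and 9.24 in the naive arrays. PD-1hi replicate 3 stood well above the other PD-1hi arrays and reached the PD-1int and memory range, while naive lay above all. The log2 difference in PD-1hi cells was −0.90 ± 0.18 from PD-1int cells (adjusted p = 0.00936, but 0.0682 in a fit of those 8 arrays alone) and −1.47 ± 0.18 from naive cells (adjusted p = 5e-06). Memory cells were below naive cells by −0.75 ± 0.18 (adjusted p = 0.0103). The PD-1int difference from naive cells, −0.57 ± 0.18 (adjusted p = 0.0324), was lost on leaving out any 1 of 5 arrays, with adjusted p up to 0.101.

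Ifit2 and Ifit3 were not called in any comparison that involves PD-1hi cells. Ifit2 was called in no comparison at all (smallest adjusted p = 0.146), with means of 8.43 ± 0.32 in PD-1hi, 8.76 ± 0.24 in PD-1int, 8.42 ± 0.20 in memory and 8.80 ± 0.38 in naive cells (SD, n = 4 each). Ifit3 averaged 7.74 ± 0.15 in PD-1hi, 7.47 ± 0.11 in PD-1int, 7.73 ± 0.16 in memory and 7.80 ± 0.17 in naive cells, and its 1 call, lower in PD-1int than in naive cells (adjusted p = 0.0282), was lost on leaving out any 1 of 5 arrays, with adjusted p up to 0.0878. The mouse genome holds close copies of Ifit1 and Ifit3, and a probe set cannot always tell them apart.

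Of the 6 factors that restrict virus replication, 3 were lower in PD-1hi than in naive cells and 4 were lower than in PD-1int cells, and Cmpk2 gave the largest difference between the effector subsets. Cmpk2 encodes a mitochondrial nucleotide kinase and is the neighbour of Rsad2. It read 6.64, 7.32, 7.33 and 6.81 in the PD-1hi arrays, 8.68, 9.14, 8.63 and 8.67 in the PD-1int arrays, 8.83, 9.10, 8.90 and 9.09 in the memory arrays, and 8.66, 8.73, 8.72 and 8.86 in the naive arrays. The other 3 subsets overlapped and PD-1hi lay more than 1 log2 unit below them. The log2 difference in PD-1hi cells was −1.76 ± 0.15 from PD-1int cells (3.38-fold lower, adjusted p = 1.57e-06), −1.96 ± 0.15 from memory cells (adjusted p = 1.52e-08) and −1.72 ± 0.15 from naive cells (adjusted p = 3.75e-08). PD-1int and memory cells were not called against naive cells.

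Mx1 encodes a GTPase that blocks influenza virus, and its C57BL/6 allele is known to carry a deletion that inactivates the protein. The transcript read 6.59, 6.25, 6.87 and 6.29 in the PD-1hi arrays, 7.01, 7.58, 7.19 and 7.31 in the PD-1int arrays, 7.01, 6.84, 6.49 and 6.86 in the memory arrays, and 5.94, 6.17, 6.19 and 6.39 in the naive arrays. PD-1int was above PD-1hi and naive without overlap, and PD-1hi overlapped naive. Mx1 was higher in PD-1int cells than in naive cells by a log2 difference of 1.10 ± 0.15 (2.14-fold, adjusted p = 1.85e-05) and higher in memory than in naive cells by 0.63 ± 0.15 (adjusted p = 0.00823). PD-1hi cells were lower than PD-1int cells (−0.77 ± 0.15, adjusted p = 0.00636) and were not called against naive cells (0.33 ± 0.15, adjusted p = 0.126). The difference of 0.47 ± 0.15 between PD-1int and memory cells (adjusted p = 0.0375) was lost on leaving out any 1 of 6 arrays, with adjusted p up to 0.142, and with the replicate number as a block (adjusted p = 0.0651).

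Rsad2, or viperin, which makes a chain-terminating nucleotide, had means of 6.74 ± 0.10 in PD-1hi, 7.25 ± 0.20 in PD-1int, 7.22 ± 0.08 in memory and 6.84 ± 0.17 in naive cells (SD, n = 4 each). PD-1hi was below PD-1int cells (−0.52 ± 0.10, adjusted p = 0.00744) and was not called against naive cells. Bst2, or tetherin, which holds budding virus on the cell surface, averaged 10.16 ± 0.13 in PD-1hi, 10.68 ± 0.13 in PD-1int, 11.11 ± 0.07 in memory and 11.12 ± 0.17 in naive cells. PD-1hi arrays were below PD-1int arrays and PD-1int arrays below memory and naive arrays, without overlap. Samd9l, a poxvirus restriction factor, was lower in PD-1hi (−0.48 ± 0.07, adjusted p = 2.2e-05) and PD-1int cells (−0.29 ± 0.07, adjusted p = 0.00429) than in naive cells.

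Isg20, an exonuclease that degrades viral RNA, had its highest mean in PD-1hi cells. It read 8.82, 8.92, 9.04 and 8.98 in the PD-1hi arrays, 8.70, 8.64, 8.69 and 8.74 in the PD-1int arrays, 8.35, 8.57, 8.37 and 8.67 in the memory arrays, and 8.98, 8.86, 8.75 and 8.95 in the naive arrays. PD-1hi overlapped naive and lay above PD-1int and memory. It was higher than in memory cells by a log2 difference of 0.45 ± 0.09 (adjusted p = 0.00056), and the difference of 0.25 ± 0.09 from PD-1int cells was not called (adjusted p = 0.15).

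Nmi, which binds STAT proteins and the product of Ifi35, read 10.93, 11.01, 11.06 and 11.01 in the PD-1hi arrays, 11.10, 11, 11.01 and 10.98 in the PD-1int arrays, 10.77, 10.82, 10.66 and 10.77 in the memory arrays, and 10.56, 10.80, 10.63 and 10.73 in the naive arrays. Both effector subsets lay above memory and naive, and the effector subsets overlapped each other. Against naive cells Nmi was higher by a log2 difference of 0.32 ± 0.07 in PD-1hi cells (adjusted p = 0.00171) and 0.34 ± 0.07 in PD-1int cells (adjusted p = 0.00128). Its PD-1hi difference from memory cells, 0.25 ± 0.07 (adjusted p = 0.0149), was lost without memory replicate 3 (adjusted p = 0.055).

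The remaining members are given by their means or differences. Rtp4, a chaperone of membrane receptors, averaged 8.62 ± 0.18 in PD-1hi, 9.57 ± 0.12 in PD-1int, 9.78 ± 0.16 in memory and 10.09 ± 0.15 in naive cells (SD, n = 4 each), and PD-1hi was 1.94-fold lower than PD-1int and 2.77-fold lower than naive. Daxx, a chaperone of histones in PML nuclear bodies, was lower in PD-1hi than in naive cells (−0.74 ± 0.13, adjusted p = 0.000132), and its call against memory cells (adjusted p = 0.0154) was lost without 1 of 3 arrays, with adjusted p up to 0.0612. Sp100, another protein of these bodies, averaged 12.41 ± 0.06 in PD-1hi, 12.66 ± 0.05 in PD-1int, 12.37 ± 0.04 in memory and 12.35 ± 0.05 in naive cells. Its other 3 probe sets also had PD-1int highest but differed in the order of the rest, and the call between the effector subsets (adjusted p = 0.0392) was lost in a fit of those 8 arrays alone (adjusted p = 0.125), with the replicate number as a block (0.0579) and on leaving out any 1 of 7 arrays (up to 0.116).

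Xaf1, an antagonist of the caspase inhibitor XIAP, was lower in PD-1hi than in PD-1int cells (−0.51 ± 0.10, adjusted p = 0.00634). Its calls against naive cells (−0.32 ± 0.10, adjusted p = 0.0198) and memory cells (−0.28 ± 0.10, adjusted p = 0.0493) were lost on leaving out any 1 of 4 and of 6 arrays, with adjusted p up to 0.0776 and 0.137, and the call against memory cells also with the replicate number as a block (0.0652). Fits of only the 8 arrays compared lost both calls (adjusted p = 0.0593 and 0.0513), and quantile normalization lost the call against memory cells (0.0505). Lgals3bp, a secreted glycoprotein that binds galectins, was higher than in naive cells in PD-1int (0.38 ± 0.09, adjusted p = 0.00546) and memory cells (0.42 ± 0.09, adjusted p = 0.00457). Its PD-1hi against PD-1int call (−0.35 ± 0.09, adjusted p = 0.047) was lost when its probe sets were averaged (adjusted p = 0.0921) and on leaving out any 1 of 6 arrays (up to 0.141). That call was also lost under median centring (adjusted p = 0.0521), in a fit of those 8 arrays alone (0.0859) and with array weights (0.0602). Ifi35, the partner of NMI, was called in none of the 6 comparisons (smallest adjusted p = 0.187), and its subset means lay between 10.33 and 10.55.

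The interferons and their receptors were measured on the same arrays. Ifng, the cytokine of activated T cells, read 10.88, 10.87, 11.26 and 11.26 in the PD-1hi arrays, 9.65, 9.86, 10.72 and 10.06 in the PD-1int arrays, 6.72, 6.75, 6.82 and 6.85 in the memory arrays, and 5.97, 6.64, 5.82 and 6.31 in the naive arrays. Its order was PD-1hi above PD-1int above memory above naive, with no overlap between neighbours. Between the effector subsets the log2 difference was 0.99 ± 0.20 (adjusted p = 0.00716). The other 5 interferon genes with a probe set, Ifnb1, Ifna4, Ifna2, Ifnk and Ifne, were called in none of the 6 comparisons by limma: 2 of the 30 differences had an unadjusted p under 0.05, and the smallest adjusted p was 0.0573.

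Ifnar2, the chain of the type I interferon receptor that USP18 binds, read 9.43, 9.77, 9.70 and 9.36 in the PD-1hi arrays, 10.79, 10.78, 10.67 and 10.64 in the PD-1int arrays, 11.15, 11.10, 10.93 and 11.06 in the memory arrays, and 10.25, 10.50, 10.46 and 10.32 in the naive arrays. The 4 subsets did not overlap, with PD-1hi lowest and memory highest. Its log2 difference in PD-1hi cells was −1.16 ± 0.10 from PD-1int cells (adjusted p = 1.57e-06) and −0.82 ± 0.10 from naive cells (adjusted p = 2.12e-06), while PD-1int was above naive cells (0.34 ± 0.10, adjusted p = 0.0146). Ifnar1, the other chain, is given because its partner was named and was chosen after its values were seen. It averaged 9.92 ± 0.18 in PD-1hi, 10.22 ± 0.08 in PD-1int, 10.18 ± 0.09 in memory and 10.17 ± 0.09 in naive cells (SD, n = 4 each).

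Ptpn6, the phosphatase SHP-1, averaged 9.42 ± 0.06 in PD-1hi, 10.29 ± 0.16 in PD-1int, 11.63 ± 0.08 in memory and 10.96 ± 0.12 in naive cells. Ifngr2, which encodes the second interferon gamma receptor chain, averaged 6.89 ± 0.32 in PD-1hi, 6.77 ± 0.20 in PD-1int, 6.93 ± 0.14 in memory and 9.74 ± 0.33 in naive cells. Ikbke, a kinase that activates IRF3 and IRF7, averaged 9.44 ± 0.07 in PD-1hi, 9.62 ± 0.13 in PD-1int, 10.10 ± 0.12 in memory and 10.92 ± 0.08 in naive cells. Naive cells were thus highest for Ifngr2 and Ikbke, and memory cells for Ptpn6.

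**Figure D4:**
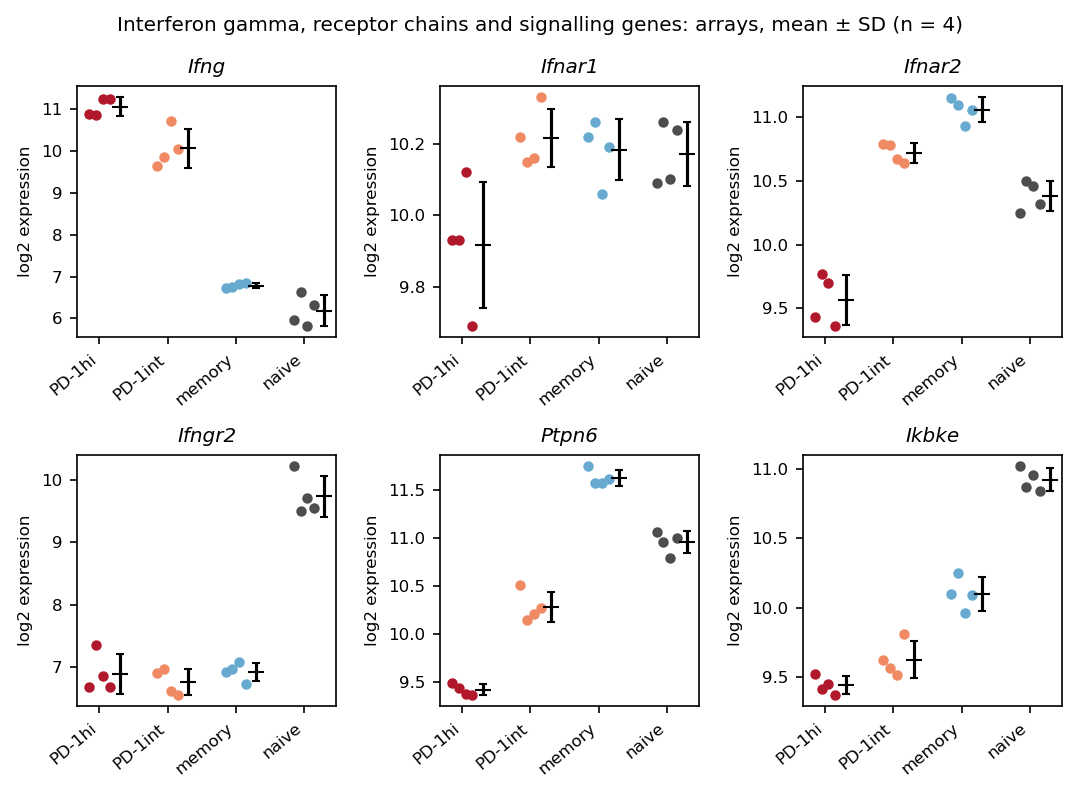
Log2 values of Ifng, 3 interferon receptor chains, Ptpn6 and Ikbke by subset, with PD-1hi at the left and naive at the right; points are the 4 arrays of a subset and bars the mean and SD. Ifng is highest and Ifnar2 and Ptpn6 are lowest in PD-1hi cells, while Ifngr2 is high in naive cells and near 7 in the other 3 subsets. Each panel has its own log2 axis, which does not start at 0.

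Other genes of the pathway were counted in the same fit, and the shares of all genes called are those given for each comparison above: 1.37% higher and 1.94% lower in PD-1hi than in PD-1int cells, and 13.4% higher and 13.7% lower in PD-1hi than in naive cells. Of 13 measured receptors, kinases and feedback genes, PD-1hi cells had 1 higher and 2 lower than PD-1int cells, and 3 higher and 6 lower than naive cells. Of 11 measured genes of nucleic acid sensing, 0 were called by limma between the effector subsets. At an unadjusted limma p under 0.05, 2 of them were lower in PD-1hi cells, as were 7.46% of all genes. Of 38 further interferon-inducible genes that are not members, 7 were lower and 0 higher in PD-1hi than in PD-1int cells, with a median log2 difference of −0.16. At an unadjusted limma p under 0.05, 13 were lower and 1 higher, against 7.46% and 6.72% of all genes. In PD-1hi cells 15 of the 38 were lower and 5 higher than in naive cells, and the count of higher genes is near the share of all genes. In PD-1int cells 13 were lower and 7 higher than in naive cells (10.8% and 11.9% of all genes), and in memory cells 13 lower and 2 higher (5.02% and 6.7%). Against memory cells 15 were lower and 10 higher in PD-1hi cells (11.1% and 10.8% of all genes). In PD-1int cells 8 were lower and 11 higher than in memory cells (7.66% and 8.49%). The 10 were Ube2l6, Phf11b, Gbp3, Gbp7, Tap1, Tap2, Tapbp, Psmb8, Psmb9 and Nlrc5, and all were among the 11.

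Within these further genes the immunity-related GTPases Irgm2 and Igtp were far below naive levels in the 3 other subsets. Irgm2 averaged 8.84 ± 0.18 in PD-1hi, 9.36 ± 0.05 in PD-1int, 9.59 ± 0.10 in memory and 11.09 ± 0.22 in naive cells (SD, n = 4 each). Igtp averaged 8.81 ± 0.23 in PD-1hi, 9.48 ± 0.10 in PD-1int, 10.11 ± 0.02 in memory and 11.67 ± 0.44 in naive cells. Both genes had PD-1hi arrays below PD-1int arrays, PD-1int below memory and memory below naive, without overlap. Slfn5, of the Schlafen family, averaged 5.66 ± 0.05 in PD-1hi, 6.66 ± 0.40 in PD-1int, 7.70 ± 0.20 in memory and 7.56 ± 0.26 in naive cells.

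The labelled cell type was checked against markers. The 7 measured CD8 T-cell genes, summed on the linear scale, lay between 15.12 and 15.27 log2 units in PD-1hi, 15.12 and 15.20 in PD-1int, 15.06 and 15.12 in memory and 15.06 and 15.10 in naive arrays. Of these 7, 3 were higher (Cd3e, Cd3g and Cd2) and 1 was lower (Cd8b1) in PD-1hi than in naive cells. All 3 genes of the sort differed between PD-1hi and PD-1int cells: the log2 difference was 1.29 ± 0.15 for Pdcd1, which encodes PD-1, −0.76 ± 0.10 for Cd44, and −2.58 ± 0.20 for Il7r, which encodes CD127, although the labels give the same CD127 and CD44 gates for both effector subsets. Bst2 is also a marker of plasmacytoid dendritic cells, which make type I interferon. The summed level of 8 such markers, Bst2 included, was 11.32 to 11.43 in PD-1hi, 11.43 to 11.58 in PD-1int, 11.52 to 11.67 in memory and 11.44 to 11.76 in naive arrays. Between PD-1hi and PD-1int cells Bst2 was the only one of the 8 that was called. Against naive cells Irf8 and Cox6a2 were higher and Bst2 and Ccr9 lower in PD-1hi cells (13.4% and 13.7% of all genes). Against memory cells Irf8 and Pacsin1 were higher and Bst2 lower in PD-1hi cells (10.8% and 11.1%). The defining marker Siglech was called by limma in none of the 6 comparisons (smallest adjusted p = 0.0652).

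Markers of other cells moved between the subsets in part, beside the 13.4% of all genes called higher in PD-1hi than in naive cells and the 1.94% called lower in PD-1hi than in PD-1int cells. Of 11 measured B-cell and CLL markers, 1 was lower in PD-1hi than in PD-1int cells (Cd22) and none higher. Their sum was 9.70 to 10.03 in PD-1hi, 9.92 to 10.24 in PD-1int, 10.54 to 10.90 in memory and 9.82 to 10.24 in naive arrays. Of 11 myeloid markers 4 were higher in PD-1hi than in naive cells (Itgam, Itgax, Cd68 and Cst3), and 1 (Itgax) was lower than in PD-1int cells. The sum of the 11 was 12.04 to 12.45 in PD-1hi, 12.30 to 12.55 in PD-1int, 11.57 to 11.67 in memory and 10.97 to 11.24 in naive arrays. Of 5 natural killer markers 1 was higher in PD-1hi than in naive cells (Eomes), and the median log2 difference of the 5 was 0.26. In memory cells 4 were higher than in naive cells (Klrb1c, Eomes, Tyrobp and Fcer1g), beside 6.7% of all genes. Against memory cells, Eomes was higher and Klrb1c and Tyrobp were lower in PD-1hi cells (10.8% and 11.1% of all genes). The sum of the 5 was 11.39 to 11.54 in PD-1hi, 11.29 to 11.44 in PD-1int, 10.55 to 10.82 in memory and 8.85 to 9.16 in naive arrays. Of 4 CD4 T-cell markers 1 was higher in PD-1hi than in naive cells (Zbtb7b), and their sum stayed between 8.19 and 8.49 in all arrays. The files carry no detection level, so none of these markers can be called absent, and their part in the differences of the antiviral genes was not tested.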

How the data were processed

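RNA was hybridised to GeneChip Mouse Gene 2.0 ST arrays with the WT Pico kit, per the labels' protocols. The authors deposited log2 values, 1 for each probe set and array. They used Affymetrix Power Tools, per the submitters' processing notes. Which summarisation method, genome build and software version applied is not given in the sources used here. Base 2 was read from the range, 2.35 to 14.1. Array medians lay between 6.39 and 6.49, and no 2 arrays were identical. Depth has no counterpart here, and the number of arrays limits the precision: the median SE of a log2 difference was 0.104.

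The file holds 41345 probe sets, of which the platform annotation gives 23521 a single symbol, 1814 several and 16010 none. Only the first kind was used, 1 probe set for each of 22180 genes. A different normalization could shift all genes of an array, and the files carry no detection level below which a gene counts as absent.

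All 16 arrays were fitted together with limma 3.58.1 in R 4.3.3 (lmFit on 4 subset means without a block, and eBayes). The 6 pairs of subsets were compared, with Benjamini-Hochberg adjustment over 22180 genes in each. The pipeline was tested on simulated data. The members and the gene lists were chosen with earlier results of these data known. Values in every array are given for the 3 largest rises and falls among the members called in each comparison, for members called in all 3 comparisons against naive cells, and for Stat2, Irf9, Irf7 and Irf1. From the other pathway lists, the genes with the 4 smallest adjusted p in a comparison could be named.

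The replicate numbers come from a tag in the titles that recurs in every subset. The labels do not say what the tag marks, so the numbers were a block only in an alternative fit. Deviations of same-numbered arrays correlated at −0.05 to 0.15 over 24 pairs of subsets and numbers, with 2 over 0.1. Among the arrays of other subsets, 10 of 16 arrays correlated best with an array of their own number. Whether same-numbered arrays share a source was not tested. Alternatives were quantile normalization, median centring, fitting only the 8 arrays compared, removing the dimmest 40% of genes, averaging the probe sets of a gene, a replicate block, array weights, a trended robust eBayes, and omitting single arrays. Promoters were taken from RefSeq (GRCm38.p6).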

Additional observations from a re-analysis of the deposited data

Results flagged for a closer look

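In 13 of 148 groups of 4 arrays (37 members in 4 subsets, 8.78%) 1 array lay far from the other 3, by Dixon's criterion for 4 values. Chance alone gives about 1 in 20 such groups. Low arrays were PD-1hi replicate 1 for Dhx58 (8.03, with the other 3 between 8.28 and 8.31) and for Trim21 (9.09, others 9.51 to 9.57). PD-1int replicate 1 was low for Isg15 (9.24, others 9.65 to 9.72). Memory replicate 1 was low for Oasl1 (7.12, others 7.35 to 7.38) and memory replicate 3 for Parp9 (8.56, others 8.78 to 8.81). Among the naive arrays, replicate 2 was low for Irf9 (10.2, others 10.29 to 10.3) and replicate 1 for Zbp1 (10.66, others 11 to 11.05).

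High arrays were PD-1int replicate 2 for Cmpk2 (9.14, others 8.63 to 8.68), PD-1int replicate 4 for Eif2ak2 (8.46, others 8.04 to 8.1) and for Adar (10.13, others 10.03 to 10.04). Memory replicate 4 was high for Eif2ak2 (8.36, the others at 8.03) and for Lgals3bp (11.4, others 11.17 to 11.21). Naive replicate 4 was high for Trim25 (9.63, others 9.33 to 9.38). All values are log2 expression.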

How the results depend on the processing

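Each of the 12 counts of members called higher or lower stayed within 1.5 times its value under every alternative tried, and no called member changed direction. Leaving out each array in turn gave 2 to 3 members higher and 18 to 21 lower in PD-1hi than in naive cells, 7 to 8 and 8 to 11 in PD-1int against naive cells, 4 to 5 and 11 to 14 in memory against naive cells, 0 and 14 to 17 in PD-1hi against PD-1int cells, 5 to 6 and 17 to 20 in PD-1hi against memory cells, and 6 to 9 and 5 to 6 in PD-1int against memory cells. Of 116 calls of a member in a comparison, 95 remained whichever array was left out and 94 remained under every alternative. Calls lost were 4 under quantile normalization, 3 under median centring, 1 with the mean of probe sets, 8 with only the 8 arrays compared, 1 with array weights, and 0 with the filter on dim genes or with trend and robust settings. With the replicate number as a block 5 calls were lost: Sp100 in PD-1hi against PD-1int (adjusted p = 0.0579), Herc6 in PD-1int against naive (0.0603), Oasl1 in memory against naive (0.0533), Xaf1 in PD-1hi against memory (0.0652) and Mx1 in PD-1int against memory cells (0.0651). Whether arrays of a number share a mouse is not stated. The titles give them a common tag, and 10 of 16 arrays correlated best with an array of their own number. H2-Aa, a class II gene of B and dendritic cells, was highest in replicate 4 of each subset (7.06 in PD-1hi, 7.07 in PD-1int, 7.26 in memory and 7.25 in naive cells). It is 1 of 11 measured B-cell and CLL markers, and the others are not given by replicate here. From this 1 marker nothing is read about a shared source, which was not tested. With that block the counts of PD-1hi against PD-1int cells were 0 higher and 17 lower. Rescaling moved the median of all genes by less than 0.1 log2 units in each comparison. The causes of lost calls were not tested.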
